A study of Mus musculus with 6 samples.

Results

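The 10 genes described here, Trp53, Mdm2, Cdkn1a, Cdkn2a, Rb1, Rbl1, Rbl2, E2f1, Ccne1 and Ccne2, carry the p53 and Rb checkpoint of the cell cycle. They were chosen by symbol, and all 10 were found among the 22623 genes of each count matrix. RNA of single nuclei was counted by droplet 3′ sequencing in 6 libraries, each from a frozen subcutaneous tumor of TC1 cells grown for 24 days in the flank of a male C57BL/6-background mouse. Every host carried the MCT2 loxP/loxP allele and a systemic, tamoxifen-inducible Cre. The 3 hosts labelled knockout (KO) received tamoxifen for 5 days at 8 weeks of age, and the 3 control (CO) hosts received vehicle, so tamoxifen and the deletion cannot be told apart. Slc16a7 encodes MCT2, which carries lactate and related monocarboxylates across membranes. The implanted TC1 cells kept their own MCT2 gene, so any deletion is confined to host cells.

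The p53 protein, encoded by Trp53, is a transcription factor that halts the cell cycle or starts cell death after DNA damage or oncogene activity. It switches on Cdkn1a, whose product p21 inhibits cyclin-dependent kinases, and Mdm2, whose product marks p53 for degradation and so closes a feedback loop. Cdkn2a encodes p16Ink4a, which inhibits the kinases of the D cyclins, and p19Arf, which blocks Mdm2. The pocket proteins Rb (Rb1), p107 (Rbl1) and p130 (Rbl2) hold E2F factors such as E2f1 in check. Freed E2F factors switch on S phase genes, among them the E cyclins Ccne1 and Ccne2, which start DNA replication with Cdk2. TC1 cells are mouse lung epithelial cells transformed with the papillomavirus proteins E6 and E7 and an activated Ras. E6 directs p53 protein to degradation with the help of the ligase Ube3a, and E7 binds the pocket proteins. Both act on protein, which RNA counts do not show.

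The upstream Cdkn1a promoter is shown because it holds a match to the p53 consensus. The Cdkn2a promoters are shown because the gene has separate starts for p19Arf and p16Ink4a. The Rbl1 and Ccne1 promoters are shown as E2F-responsive members, with and without a match to the letters searched. Each sequence is the 250 bases before a RefSeq start on build GRCm38.p6, 5′ to 3′ on the strand of the gene. Capitals mark a match to the p53 consensus in Cdkn1a and to an E2F motif elsewhere.
Cdkn1a upstream start, chr17:29090729-29090978, plus strand: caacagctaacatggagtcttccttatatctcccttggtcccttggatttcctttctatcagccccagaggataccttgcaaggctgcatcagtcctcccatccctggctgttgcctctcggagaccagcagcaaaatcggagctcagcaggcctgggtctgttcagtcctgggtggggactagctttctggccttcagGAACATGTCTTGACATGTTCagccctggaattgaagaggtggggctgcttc
Cdkn2a upstream start, chr4:89294620-89294869, minus strand: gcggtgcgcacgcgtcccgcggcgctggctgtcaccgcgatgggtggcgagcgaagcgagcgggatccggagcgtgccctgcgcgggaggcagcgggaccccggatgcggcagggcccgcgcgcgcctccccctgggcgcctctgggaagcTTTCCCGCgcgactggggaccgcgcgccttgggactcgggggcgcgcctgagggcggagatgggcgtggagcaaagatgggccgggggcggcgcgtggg
Cdkn2a downstream start, chr4:89282193-89282442, minus strand: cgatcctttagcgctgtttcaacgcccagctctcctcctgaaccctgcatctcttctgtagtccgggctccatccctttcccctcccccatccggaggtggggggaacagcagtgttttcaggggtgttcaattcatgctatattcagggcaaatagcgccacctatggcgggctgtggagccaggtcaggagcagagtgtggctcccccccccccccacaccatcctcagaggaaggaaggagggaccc
Rbl1, chr2:157204535-157204784, minus strand: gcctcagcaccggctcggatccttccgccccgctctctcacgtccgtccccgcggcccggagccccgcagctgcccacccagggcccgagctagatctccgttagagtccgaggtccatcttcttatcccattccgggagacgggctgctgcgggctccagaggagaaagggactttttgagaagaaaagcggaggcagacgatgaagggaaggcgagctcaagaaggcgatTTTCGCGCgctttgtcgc
Ccne1, chr7:38107491-38107740, minus strand: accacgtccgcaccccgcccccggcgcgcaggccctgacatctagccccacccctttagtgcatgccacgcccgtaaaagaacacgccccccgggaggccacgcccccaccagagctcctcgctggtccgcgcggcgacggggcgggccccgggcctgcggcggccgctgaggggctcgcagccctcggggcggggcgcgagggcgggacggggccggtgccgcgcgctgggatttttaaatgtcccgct

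The p53 match spans 20 bases, of which 1 was off the consensus, and begins 51 bases before the upstream of 2 RefSeq starts of Cdkn1a. The window of the downstream start, chr17:29093519-29093768, held no match. It was searched on both strands after the windows had been read, and 25 of 32851 mouse promoters (0.0761%) of the same length held such a match. Among the 10 promoters of the 8 members in the RefSeq table, this was the only one. The E2F search used TTTCCCGC, TTTGGCGC, TTTCGCGC and TTTGCCGC on both strands, and 611 promoters (1.86%) held at least 1 of them. The upstream Cdkn2a start had TTTCCCGC beginning 99 bases before it, and Rbl1 had TTTCGCGC beginning 18 bases before its start. The downstream Cdkn2a start and Ccne1 held none of these letters in their windows. A match is a description of the sequence, and no binding was measured in these tumors.

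Per the GENCODE vM21 annotation of GRCm38, the members are protein-coding genes on 8 chromosomes. Trp53 lies at chr11:69580359-69591873 on the plus strand, Mdm2 at chr10:117688875-117710758 on the minus strand and Cdkn1a at chr17:29090976-29100727 on the plus strand. Cdkn2a lies at chr4:89274471-89294653 on the minus strand, and counts per gene do not separate its 2 annotated transcripts. Rb1 spans chr14:73183673-73325822 and Rbl1 chr2:157145893-157204534, both on the minus strand, and Rbl2 lies at chr8:91070057-91123844 on the plus strand. E2f1 lies at chr2:154559407-154569892 and Ccne1 at chr7:38097984-38107534, both on the minus strand, while Ccne2 lies at chr4:11191351-11204779 on the plus strand. The chemistry tags 3′ ends on a known strand, so levels are compared between nuclei for 1 gene and not between genes.

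The 6 libraries held 13252572 to 22057084 unique molecular identifiers (UMIs, the counted molecules) and kept 17514 nuclei after filtering, 1763 to 4587 per library. Nuclei were sorted by the UMIs of marker lists that hold none of the 10 members. A nucleus with at least 5 UMIs of the tumor list that made up at least 80% of its tumor and host marker UMIs was called tumor-like, and host-like nuclei had at least 4 host UMIs that made up at least 80%. This gave 6845 tumor-like nuclei with a median of 5521 UMIs and 5176 host-like nuclei with a median of 1158, of which 3469 were macrophage-like and 359 lymphocyte-like. Another 3987 nuclei were mixed and 1506 had too few marker UMIs to be assigned. The mixed class depended on host-list genes that tumor-like nuclei also hold. With 4 such genes taken out, a choice made after seeing the data, 9058 nuclei were tumor-like, 5056 host-like and 1680 mixed. With the full lists, used in what follows, 3434 nuclei lay within 5 percentage points of a limit. The tumor markers had been drawn from earlier results on these libraries and do not separate implanted cells from host stroma that shares them. The labels name the tissue as lung, but 4 of 8 lung epithelium markers, Sftpc, Scgb1a1 and Nkx2-1 among them, were at 0 in tumor-like nuclei, and the 8 together gave 0.405 to 1.29 counts per 1e6 UMIs of the class (CPM) per library. Tumor marker genes left out of the sorting give a view, which varied by gene, of the tumor RNA in host-like nuclei. Bnc2, Gulp1, Zfpm2 and Hmga2 stood in host-like nuclei at 1.22% to 14.2% of their tumor-like level over the 6 libraries, Itgb8 at 0% to 26.9% and Tnc at 18.3% to 41.8%. Held-out macrophage markers summed to 286.6 to 412.9 CPM in tumor-like and to 1602 to 2923 CPM in macrophage-like nuclei. The deleted gene, Slc16a7, did not separate the groups. In host-like nuclei it stood at 92.0, 83.7 and 139 CPM in the CO libraries and at 114, 108 and 153 CPM in the libraries labelled KO (log2 difference 0.30, SE 0.26, adjusted p = 0.843), so CO and KO stand for the labels alone in what follows. The reads are from 3′ ends, and whether the deleted exons contribute to them is not given in the sources used here.

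Against host-like nuclei, tumor-like nuclei held more Mdm2, Ccne2, E2f1, Cdkn1a, Cdkn2a and Ccne1 RNA and less Rbl2 RNA. A call required an absolute log2 difference of 0.58 or more and an adjusted p of 0.05 or less (edgeR quasi-likelihood test over all genes, library as a block, Benjamini-Hochberg adjustment). By this rule 6 of the 10 members were called higher in tumor-like nuclei and 1 lower. Among all 12830 genes tested, 53.1% were called, 25.7% higher and 27.4% lower, so a called difference between these classes was common. All 10 members passed the filter on low counts in each of the 8 comparisons as set out here. Each of the 10 differed in the same direction in 6 of 6 libraries. Counts are shares of the UMIs of a class in a library, so a gene can be compared only relative to the other RNA of those nuclei, and depth per nucleus differed between the classes as given above.

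**Figure D1:**
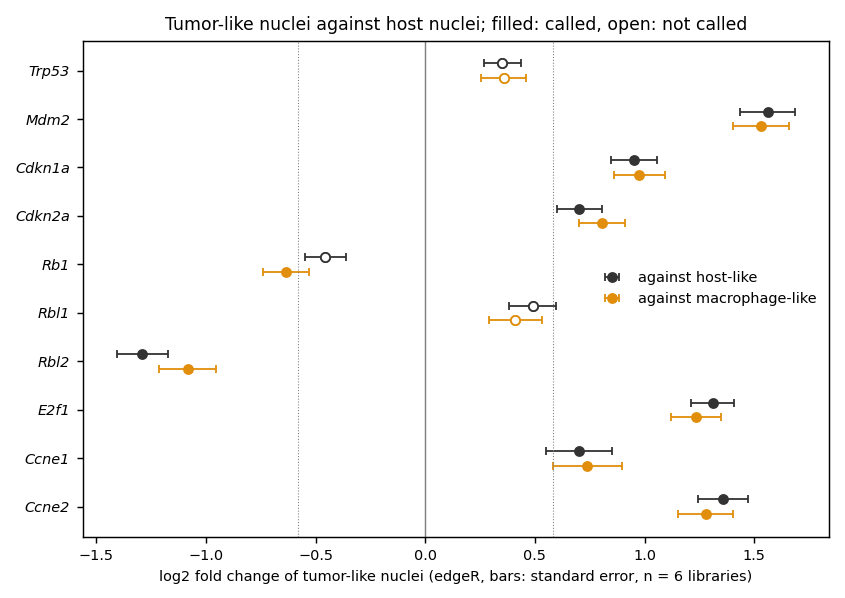
Log2 difference (horizontal axis) of the 10 members, tumor-like minus host-like and tumor-like minus macrophage-like nuclei, from 6 libraries with bars of 1 SE. Filled points pass both thresholds, with Mdm2 at 1.56 and Rbl2 at -1.29 at the ends of the host-like comparison.

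Trp53 itself differed little between the classes. In tumor-like nuclei it stood at 172, 151 and 106 CPM in the CO libraries (replicates 1, 2 and 3) and at 156, 91.5 and 112 CPM in the libraries labelled KO. In host-like nuclei it stood at 126, 118 and 85.0 CPM in CO and at 117, 80.3 and 91.1 CPM in the KO libraries. The 2 classes overlapped across libraries, while within each library the host-like level was 73.7% to 87.7% of the tumor-like one. The log2 difference was 0.35 (SE 0.0845, adjusted p = 0.00259), under the size needed for a call. In the 1506 unassigned nuclei, whose median was 665.5 UMIs, Trp53 stood at 105% to 142% of its tumor-like level.

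Mdm2, the ligase of p53, had the largest log2 difference of the 10. It stood at 579, 817 and 410.4 CPM in tumor-like nuclei of the CO libraries and at 518, 509.8 and 547 CPM in those of the libraries labelled KO. Host-like nuclei held 199.7, 193 and 166 CPM in CO and 179.8, 158 and 232 CPM in the KO libraries. The lowest tumor-like library lay above the highest host-like one, and CO replicate 2 was the highest of all. The log2 difference was 1.56 (SE 0.127, adjusted p = 2.21e-07), and against macrophage-like nuclei it was 1.53 (SE 0.128, adjusted p = 1.28e-08). With every nucleus thinned to 1000 UMIs, which left 6602 tumor-like and 3322 host-like nuclei and dropped 243 and 1854 shallower ones, 35.9% of tumor-like and 16.8% of host-like nuclei held at least 1 Mdm2 UMI. Unthinned shares were 76.6% and 21.5%.

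Cdkn1a, the p21 gene, moved in the same direction by less. Its tumor-like level was 475, 459 and 256 CPM in CO and 352, 176 and 236 CPM in KO, and its host-like level was 206, 205 and 139 CPM in CO and 181, 105 and 149 CPM in KO. Tumor-like KO replicate 2 lay below the 3 highest host-like libraries, so the classes separated within libraries and not across them. This gave a log2 difference of 0.95 (SE 0.106, adjusted p = 4.26e-06). Unassigned nuclei held 552, 501 and 377 CPM in CO and 314, 254 and 346 CPM in KO, above the tumor-like level in 5 of 6 libraries.

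Cdkn2a RNA was counted in both classes in every library. Tumor-like nuclei held 604, 544 and 546 CPM in CO and 577, 254 and 324 CPM in KO, and host-like nuclei 307, 336 and 373 CPM in CO and 359, 141 and 229 CPM in KO. KO replicates 2 and 3 were the lowest in both classes. The log2 difference was 0.70 (SE 0.102, adjusted p = 4.73e-05). The host-like level was 50.9% to 70.7% of the tumor-like one. Held-out markers reached at most 14.2% (Bnc2, Gulp1, Zfpm2 and Hmga2), 26.9% (Itgb8) and 41.8% (Tnc) in any library. Of the tumor markers used in the sorting, Crabp1 stood in host-like nuclei at 53.9% to 111% and Igf2bp3 at 68.7% to 135%. Msln stood at 30.2% to 86.7%, Pthlh at 10.7% to 63.4% and the other markers of that list at 1.09% to 34.4%. In unassigned nuclei Cdkn2a stood at 903, 699.9 and 838 CPM in CO and at 760.3, 371 and 587 CPM in KO. This was above the tumor-like level of the same library in 6 of 6. What part free RNA had in these levels was not tested.

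**Figure D2:**
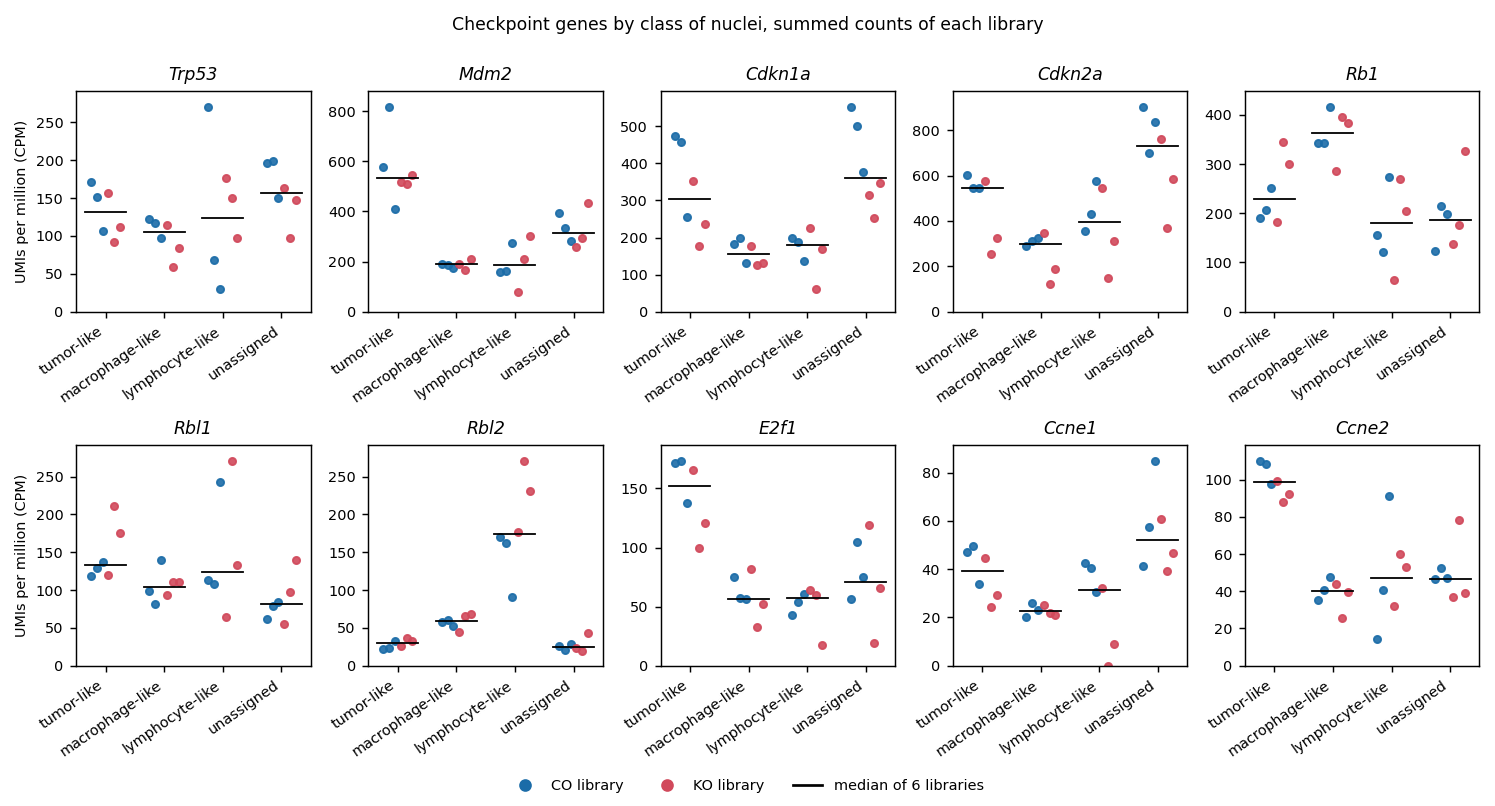
CPM (vertical axis of each panel) of the 10 members in tumor-like, macrophage-like, lymphocyte-like and unassigned nuclei, 1 point per library with a line at the median of 6. Rbl2 is highest in the lymphocyte-like nuclei and low in both the tumor-like and the unassigned nuclei, and Cdkn2a is highest in the unassigned nuclei.

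Of the pocket protein genes, Rbl2 was called lower in tumor-like nuclei, while Rb1 and Rbl1 differed by less than the size set for a call. Rbl2 stood at 21.9, 23.8 and 32.9 CPM in tumor-like nuclei of CO and at 26.1, 36.5 and 32.8 CPM in those of KO. Host-like nuclei held 67.8, 62.4 and 54.1 CPM in CO and 67.4, 85.8 and 81.5 CPM in the KO libraries. The classes did not overlap, and the log2 difference was -1.29 (SE 0.116, adjusted p = 5.79e-07). Macrophage-like nuclei held 44.1 to 68.8 CPM (log2 difference -1.08, SE 0.130, adjusted p = 1.33e-06). The lymphocyte-like nuclei held the most, at 171, 162 and 91.3 CPM in CO and 176, 271 and 231 CPM in KO, though only 6 to 26 UMIs per library lie behind these values and no test was made of them. At 1000 UMIs per nucleus, 17.8% of 180 lymphocyte-like, 6.26% of host-like and 2.82% of tumor-like nuclei held an Rbl2 UMI.

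Rb1 stood at 191, 207 and 250.3 CPM in tumor-like nuclei of CO and at 182, 346 and 299 CPM in those of KO. Host-like nuclei held 317, 302 and 357 CPM in CO and 263, 385 and 359 CPM in KO. KO replicate 2 was the highest library in both classes, and its tumor-like level exceeded the host-like level of 3 other libraries. The log2 difference was -0.46 (SE 0.0936, adjusted p = 0.000799), not a call. Against macrophage-like nuclei, which held 287 to 416 CPM, it was -0.64 (SE 0.105, adjusted p = 4.56e-05), a call that was lost with no filter on low counts (-0.53) and in nuclei with at least 500 genes and under 5% mitochondrial counts (-0.45).

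Rbl1, the p107 gene and an E2F target, had higher values in tumor-like nuclei, unlike the other pocket protein genes. It stood at 119, 129 and 137 CPM in CO and at 120.2, 211 and 176 CPM in KO there, against 99.4, 80.9 and 127 CPM and 88.2, 119 and 110.3 CPM in host-like nuclei. The ranges overlapped, since host-like CO replicate 3 lay above 2 tumor-like libraries. The log2 difference of 0.49 (SE 0.107, adjusted p = 0.00131) was not a call. It became one with no filter on low counts (0.62) and in the nuclei with at least 500 genes and under 5% mitochondrial counts (0.69).

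E2f1 and the E cyclins were higher in tumor-like nuclei in every library. E2f1 stood at 172, 173 and 138 CPM in CO and at 166, 99.9 and 121 CPM in KO, against 69.7, 56.7 and 55.2 CPM and 78.4, 44.3 and 48.0 CPM in host-like nuclei. The classes did not overlap, and the log2 difference was 1.31 (SE 0.0977, adjusted p = 9.77e-08). Ccne2 stood at 109.9, 108 and 97.9 CPM in tumor-like nuclei of CO and at 99.1, 87.9 and 92.3 CPM in those of KO. Host-like nuclei held 35.3, 35.5 and 43.1 CPM in CO and 40.3, 36.0 and 42.5 CPM in KO. This cyclin varied least among tumor-like libraries of the 3 genes, and its log2 difference was 1.36 (SE 0.114, adjusted p = 2.93e-07). Ccne1 stood at 47.0, 49.5 and 33.7 CPM in tumor-like nuclei of CO and at 44.7, 24.2 and 29.2 CPM in those of KO. Its host-like level was 19.5, 26.2 and 24.3 CPM in CO and 28.2, 19.4 and 23.3 CPM in KO. Tumor-like KO replicate 2 lay within the host-like range, and the log2 difference was 0.70 (SE 0.148, adjusted p = 0.00104).

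Macrophage-like nuclei gave the same 6 calls of higher RNA in tumor-like nuclei, and 2 of lower RNA with Rb1 beside Rbl2. In that comparison 53.2% of 12545 genes were called, 27.2% higher and 26% lower. Its log2 differences ranged over the 10 members from -1.08 for Rbl2 to 1.53 for Mdm2. The remaining log2 differences were 1.28 for Ccne2, 1.24 for E2f1, 0.98 for Cdkn1a, 0.80 for Cdkn2a, 0.74 for Ccne1, 0.41 for Rbl1 and 0.36 for Trp53. Macrophage-like nuclei make up most of the host-like class, so the 2 comparisons share nuclei. Without CO replicate 1 the Ccne1 difference was 0.58 (adjusted p = 0.00444) and fell just short of a call.

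Other genes of the same pathways were read as 4 lists, chosen with earlier results of these data known. Of 25 p53 target genes, 15 were called higher and 4 lower in tumor-like against host-like nuclei, and their median log2 difference was 0.82 beside -0.01 for all genes. The largest were Eda2r, a receptor of the tumor necrosis factor family, at 3.20, Zmat3, an RNA-binding protein gene, at 2.42, Trp53inp1 at 2.19 and Ccng1, the cyclin G1 gene, at 1.40. Of 15 p53 regulators tested, 5 were called higher and 2 lower, and the median was 0.08. Among them were the checkpoint kinase genes Chek1 at 0.98 and Atm at 0.80 and the p53 ligase gene Rchy1 at 0.83. Trp63, the p63 gene of epithelial basal cells, stood at -4.50 but had low counts. It fell under the filter on low counts in all comparisons but this one and the later test of the class difference between the groups.

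Of 15 kinases, cyclins and inhibitors around the members, 5 were called higher and 4 lower in tumor-like nuclei. Ccnd2, a D cyclin gene, was lower by far (-2.79), and Cdkn2b, the p15 gene next to Cdkn2a, was higher (1.88), as were the kinase gene Cdk2 (1.44) and its activating phosphatase gene Cdc25a (0.94). The last list, of 16 genes, covers E2F factors, their partners and the DREAM complex, which represses cycle genes in resting cells. Mybl2 and Foxm1 in it are transcription factor genes outside that complex. Of the 16 genes, 9 were called higher and 1 lower, with a median of 0.70. E2f7, an E2F repressor, stood at 2.17, the E2F dimerization partners Tfdp2 and Tfdp1 at 1.57 and 1.5, and E2f6 at 1.35. Against macrophage-like nuclei the counts were 15 higher and 4 lower of 24 targets, 4 and 1 of 14 regulators, 5 and 3 of 15 kinases, cyclins and inhibitors, and 9 and 1 of 16 E2F and DREAM genes. In the order of size the named targets and E2F genes were the same, and Ep300, a coactivator gene, stood at -0.80 and Fbxw7, whose product degrades cyclin E, at -0.98. Tumor-like nuclei also held more S phase and G2/M marker RNA. The S list of 40 genes summed to 4192 to 4736 CPM in tumor-like and 2446 to 2635 CPM in host-like nuclei, and the G2/M list of 52 genes to 5949 to 7924 CPM and 3857 to 5304 CPM. Their part in the member differences between classes was not tested.

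**Figure D3:**
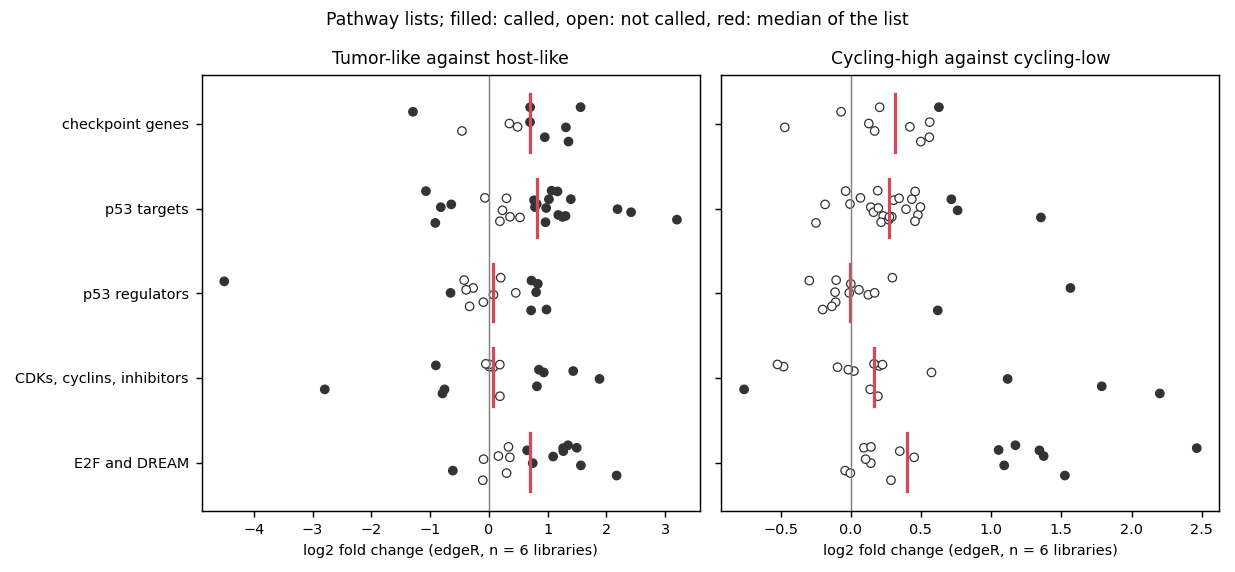
Log2 differences (horizontal axis, 1 point per gene, filled where called) of the 10 members and of the genes of 4 pathway lists, tumor-like minus host-like nuclei and cycling-high minus cycling-low tumor-like nuclei, with the median in red. In the first comparison the p53 targets have a median of 0.82 and the E2F and DREAM genes of 0.70.

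Cycling and resting tumor-like nuclei were compared next. Within each library the tumor-like nuclei with at least 1500 UMIs were ranked by the share of their UMIs in the S and G2/M lists, which hold no member. The top 25% were called cycling-high (1607 nuclei, median 6667 UMIs) and the bottom 50% cycling-low (3213 nuclei, median 4823). These are ranges of a score and not separate types, and the depth of the 2 ranges differed. Mdm2 was the only member called, and it was higher in cycling-high nuclei. Over 11840 genes 8.23% were called, 5.32% higher and 2.91% lower, so 1 of 10 members is near the background. With library as a block, Trp53 and Rbl2 had an adjusted p above 0.05, and most member differences were under the size set for a call.

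Mdm2 stood at 676, 961 and 496 CPM in cycling-high nuclei of CO and at 584, 614 and 749 CPM in those of KO. Cycling-low nuclei held 460.5, 615 and 329.6 CPM in CO and 442, 393 and 455 CPM in KO. Cycling-high nuclei were above cycling-low nuclei in 6 of 6 libraries, while the ranges overlapped between libraries. This gave a log2 difference of 0.63 (SE 0.0434, adjusted p = 2.14e-11). Without the block the same difference was not called (adjusted p = 0.0826).

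Cdkn1a, whose product slows the cycle, also had higher values in the cycling-high nuclei, without a call. It stood there at 626, 536 and 301 CPM in CO and at 422, 196 and 296 CPM in KO, against 379.8, 394 and 210.1 CPM and 304, 152 and 194 CPM in cycling-low nuclei. The order held in 6 of 6 libraries with wide spread between them. Its log2 difference of 0.56 (SE 0.0485, adjusted p = 1.69e-09) lay just under the size set for a call. Trp53 differed by 0.13 (SE 0.0596, adjusted p = 0.115), with KO replicate 1 going the other way, and Cdkn2a by 0.21 (SE 0.0436, adjusted p = 0.000867).

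E2f1 had lower values in the cycling-high nuclei, where only Rbl2 among the other members had a fitted difference of the same sign. It stood at 123, 124 and 123 CPM in CO and at 108, 72.3 and 105 CPM in KO there, and at 179, 185 and 128 CPM and 186, 111 and 126 CPM in cycling-low nuclei. Cycling-high nuclei were lower in 6 of 6 libraries, and CO replicate 3 differed least. The log2 difference was -0.47 (SE 0.0677, adjusted p = 7.72e-06), under the size set for a call. With fixed limits of 0.5% and 0.2% on the score, which left 30 low nuclei in all, its sign turned to 3.21 (adjusted p = 0.000437), and with limits of 1.5% and 0.8% (1490 and 2036 nuclei) it kept its sign.

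The E cyclins and Rbl1 had higher values in cycling-high nuclei, again without a call. Ccne1 stood at 53.7, 53.8 and 39.1 CPM in CO and at 44.1, 24.5 and 36.6 CPM in KO, against 31.4, 37.7 and 25.3 CPM and 37.9, 18.6 and 22.5 CPM in cycling-low nuclei (log2 difference 0.56, SE 0.0913, adjusted p = 4.10e-05). Ccne2 stood at 112, 96.2 and 134 CPM in CO and at 86.9, 94.1 and 109 CPM in KO, against 82.5, 82.1 and 55.7 CPM and 88.9, 60.4 and 77.5 CPM (log2 difference 0.50, SE 0.0931, adjusted p = 0.000219). Ccne1 was higher in 6 of 6 libraries and Ccne2 in 5 of 6, KO replicate 1 being the exception. Rbl1 differed by 0.42 (adjusted p = 4.25e-07) and Rb1 by 0.17 (SE 0.0468, adjusted p = 0.00804), each in 6 of 6 libraries, and Rbl2 by -0.07 (SE 0.0919, adjusted p = 0.644), at 20.5 to 37.3 CPM in cycling-high and 20.5 to 38.5 CPM in cycling-low nuclei. Without KO replicate 1 both E cyclins passed the threshold, Ccne1 at 0.64 and Ccne2 at 0.60, and so did both with each nucleus thinned to 1500 UMIs, at 1.01 and 0.68.

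The cycling-high nuclei hold S and G2/M phases together, so they were split at the balance of the 2 lists into 803 S-leaning and 804 G2/M-leaning nuclei. The split itself rests on S phase genes, so it is not independent of members that rise with them. E2f1, Ccne1 and Ccne2 were called higher in S-leaning nuclei, and none of the other 7 members was called. Over 10422 genes 5.22% were called, 3.18% higher and 2.04% lower.

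Ccne2 showed the largest difference of the 10. S-leaning nuclei held 173, 157 and 231 CPM in CO and 130.4, 146 and 159 CPM in KO, and G2/M-leaning nuclei 49.2, 32.5 and 56.2 CPM in CO and 46.7, 39.3 and 42.6 CPM in the KO libraries. The 2 sets did not overlap, and the log2 difference was 1.88 (SE 0.0951, adjusted p = 9.88e-19). Cycling-low nuclei lay between them in 5 of 6 libraries, with CO replicate 3 just under its G2/M-leaning level.

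Ccne1 followed the same order. S-leaning nuclei held 83.4, 84.7 and 58.2 CPM in CO and 64.8, 37.8 and 47.8 CPM in KO, and G2/M-leaning nuclei 23.4, 21.7 and 23.9 CPM in CO and 25, 10.4 and 21.9 CPM in the KO libraries. The sets did not overlap, and cycling-low nuclei lay between them in 6 of 6 libraries. The log2 difference was 1.62 (SE 0.138, adjusted p = 3.14e-12), with 17 to 30 UMIs behind each G2/M-leaning value.

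E2f1 stood at 167, 148 and 178 CPM in S-leaning nuclei of CO and at 143, 94.1 and 129 CPM in those of KO, against 78.1, 98.3 and 78.7 CPM and 75.8, 49.3 and 73.7 CPM in G2/M-leaning nuclei. S-leaning KO replicate 2 lay within the G2/M-leaning range and the other 5 above it. This gave a log2 difference of 0.91 (SE 0.0865, adjusted p = 7.10e-11). Cycling-low nuclei held more E2f1 than G2/M-leaning nuclei in 6 of 6 libraries and more than S-leaning nuclei in 4 of 6, so the lower level in cycling-high nuclei as a whole lay mainly on the G2/M-leaning side. No test was made of S-leaning or G2/M-leaning against cycling-low nuclei.

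Of the members that were not called, Rb1 was higher in S-leaning nuclei in 6 of 6 libraries (225, 238 and 332 CPM in CO and 211, 401 and 349 CPM in KO, against 182, 185 and 226 CPM and 143, 307 and 281 CPM), with a log2 difference of 0.40 (SE 0.0642, adjusted p = 6.40e-06). Rbl2 leaned the other way, at -0.44 (SE 0.152, adjusted p = 0.0405). Rbl1 differed by -0.19 (adjusted p = 0.0615), Trp53 by 0.22 (adjusted p = 0.0516), Mdm2 by 0.17 (adjusted p = 0.0570) and Cdkn2a by 0.14 (adjusted p = 0.105). The Cdkn1a difference of 0.01 (SE 0.0635, adjusted p = 0.941) had no steady sign, and Cdkn1a stood at 626 CPM on both sides in CO replicate 1.

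**Figure D4:**
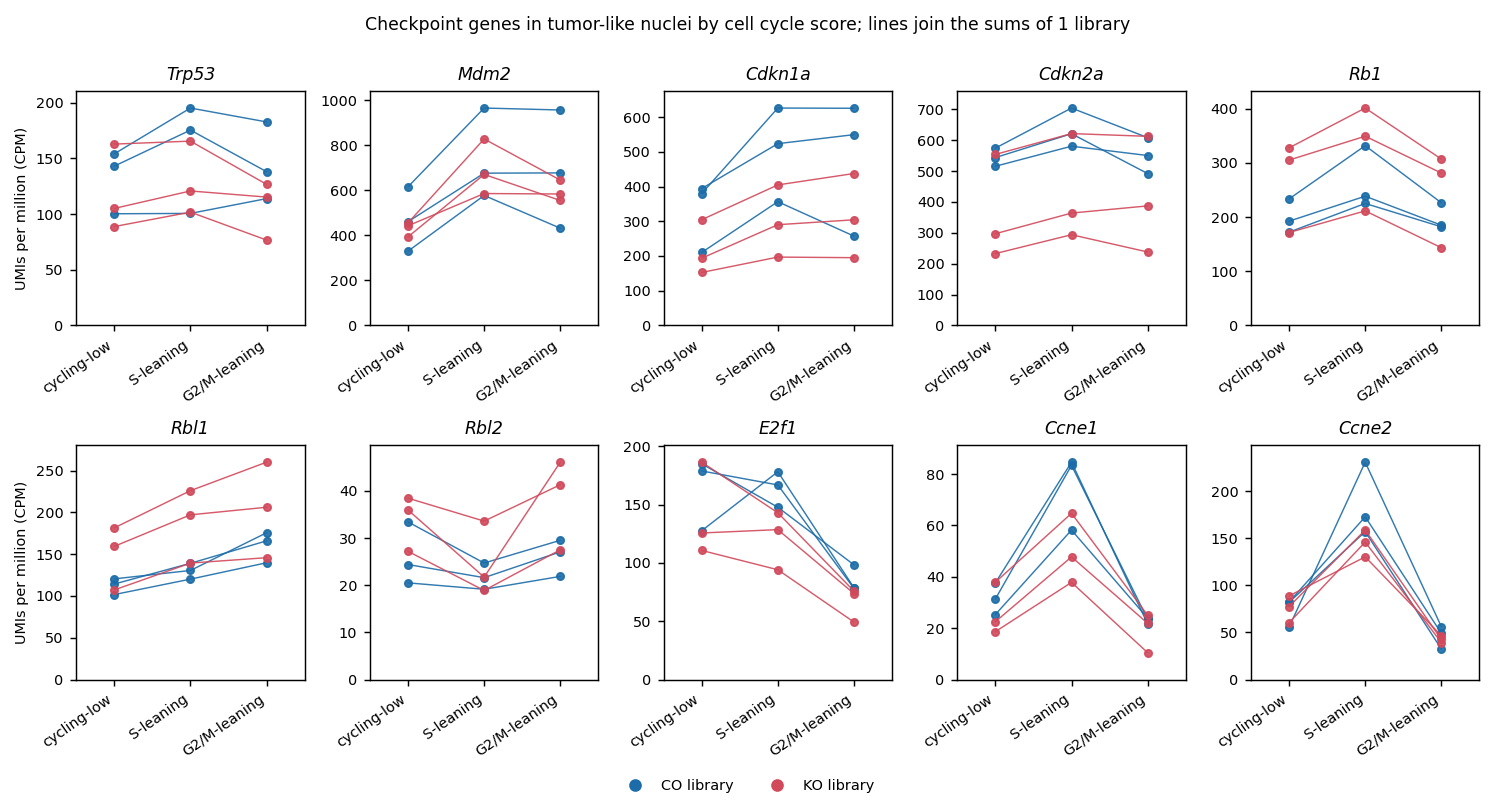
CPM (vertical axis of each panel) of the 10 members in cycling-low, S-leaning and G2/M-leaning tumor-like nuclei, with a line for each of 6 libraries. Ccne1 and Ccne2 peak in the S-leaning nuclei of every library, and E2f1 is lowest in the G2/M-leaning ones.

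Between cycling-high and cycling-low nuclei, 12% of p53 targets and 14.3% of p53 regulators were called, beside 8.23% of all genes. The shares were 26.7% for kinases, cyclins and inhibitors and 43.75% for E2F and DREAM genes. Of 25 p53 targets, 3 were called higher and none lower. These were the stress cytokine gene Gdf15 (1.35, SE 0.388), the cell death gene Pmaip1 (0.76, SE 0.123) and the antiproliferative gene Btg2 (0.72, SE 0.0613). Gdf15 had low counts, and it fell under the filter in the S-leaning split and against macrophage-like nuclei. The median of the target list was 0.28 beside -0.02 for all genes. Of 14 regulators, Chek2, a checkpoint kinase gene, rose by 1.56 and Ppm1d, a phosphatase gene that dampens p53, by 0.62. Of 15 kinases, cyclins and inhibitors, Ccna2 (2.20), the cyclin that follows E cyclins, and the inhibitor genes Cdkn2d (1.79) and Cdkn2c (1.12) were called higher and the D cyclin gene Ccnd3 (-0.76) lower. Of 16 E2F and DREAM genes, 7 were called higher and none lower, led by Foxm1 (2.46), E2f8 (1.53), Lin54 (1.37) and Mybl2 (1.34), with a median of 0.40. Between S-leaning and G2/M-leaning nuclei 6 of 16 E2F and DREAM genes were called higher and 1 lower, with Mybl2 (1.37), E2f2 (1.24), E2f7 (0.84) and E2f8 (0.80) leading. In that split 1 of 24 targets was called, Fas (0.60), a death receptor gene, and none of 14 regulators, of which Atm (0.50) and Ppm1d (0.38) had the smallest p. The ubiquitin ligase gene Skp2 (0.67) and Cdk2 (0.64) were called higher and Cdkn2d (-0.60) lower of 15 kinases, cyclins and inhibitors.

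The design asks whether the members differ between tumors of the libraries labelled KO and CO. In tumor-like nuclei none of the 10 was called, and none of 12638 genes was (0%). An unadjusted p under 0.05 was reached by 878 genes. The count of calls from DESeq2 was 23, none of them a member. In simulated libraries of this design, 19% of genes changed by 1 on the log2 scale and 97% of those changed by 3 were called, so differences of the size seen here would often be missed. P-values measure the spread between libraries, each taken as a separate tumor from its label.

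Cdkn1a had the largest difference, with the levels in tumor-like nuclei given above at 256 to 475 CPM in CO and 176 to 352 CPM in the KO libraries. The groups overlapped, and the log2 difference was -0.59 (SE 0.322, adjusted p = 0.573). Cdkn2a differed by -0.50 (SE 0.294, adjusted p = 0.573), where KO replicate 1, at 577 CPM, lay within the CO range of 544 to 604 CPM and KO replicates 2 and 3 lay below it. Rbl1 differed by 0.47 (SE 0.242, adjusted p = 0.573) and Rb1 by 0.43 (SE 0.278, adjusted p = 0.573), and in both the other KO libraries lay above CO while KO replicate 1 lay within the CO range for Rbl1 and below it for Rb1. Leaving out KO replicate 1 turned Cdkn2a (-0.88, adjusted p = 0.0242), Rb1 (0.68, adjusted p = 0.0327) and Rbl1 (0.70, adjusted p = 0.0275) into calls. In that setting 2778 of 12824 genes (21.7%) were called, so 3 of 10 members is near the background. The other differences were 0.36 for Rbl2, -0.36 for Ccne1, -0.27 for E2f1, -0.20 for Trp53, -0.14 for Mdm2 and -0.12 for Ccne2, with adjusted p of 0.573 to 0.80.

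The libraries also fall apart by mitochondrial counts, in a way that crosses the labels. In tumor-like nuclei the median mitochondrial share was 4.68% in CO replicate 3 and 5.11% and 3.48% in KO replicates 2 and 3, and it was 9.46% and 8.63% in CO replicates 1 and 2 and 8.90% in KO replicate 1. Of the 10 members, 8 did not overlap between these 3 libraries of lower and 3 of higher share. Over all 12638 genes tested in tumor-like nuclei 52% did not overlap, 23% being higher and 28.9% lower in the libraries of lower share, so such a split is common and the members cannot be told apart from it. Trp53, Cdkn1a, E2f1, Ccne1 and Ccne2 were lower in the libraries of lower mitochondrial share, Rb1, Rbl1 and Rbl2 were higher, and Mdm2 and Cdkn2a overlapped. Since 2 of 3 KO libraries but 1 of 3 CO libraries have the lower share, the split moves with the labels in part. Within the libraries of lower share, Cdkn1a stood at 256 CPM in CO and at 176 and 236 CPM in KO, and within those of higher share at 475 and 459 CPM and at 352 CPM, so KO was the lower in both. Rb1 went opposite ways, at 250.3 CPM in CO against 346 and 299 CPM in KO at the lower share and at 191 and 207 CPM against 182 CPM at the higher. For Cdkn2a and Rbl1, KO replicate 1 lay between the 2 CO libraries of its share. At the lower share, Cdkn2a stood at 546 CPM in CO against 254 and 324 CPM in KO. Rbl1 stood there at 137 CPM in CO against 211 and 176 CPM in KO. Each share has 1 library of one label, so no test was made within it, and the part of nucleus quality in these levels was not tested. Which tumors had the additional washes against free RNA is not given in the sources used here.

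In host-like nuclei, the class in which a deletion would lie, none of the members and 0% of 10315 genes were called between the groups, with 484 genes at an unadjusted p under 0.05 and 8 called by DESeq2. The member differences ranged from -0.44 for Cdkn2a to 0.36 for Rbl2, with adjusted p of 0.843 to 0.986. Host-like Cdkn2a stood at 307 to 373 CPM in CO and at 141 to 359 CPM in KO, and host-like Rbl2 at 54.1 to 67.8 CPM and 67.4 to 85.8 CPM. Held-out tumor markers summed in host-like nuclei to 274, 310 and 641 CPM in CO and to 476, 1304 and 1659 CPM in KO. In tumor-like nuclei they summed to 6491 to 9105 CPM in CO and 8373 to 11520 CPM in KO. The part of tumor RNA in the group comparisons of host nuclei was not tested. In macrophage-like nuclei 0% of 9142 genes were called (471 at an unadjusted p under 0.05, 8 by DESeq2), and the members ranged from -0.44 to 0.07. The difference between tumor-like and host-like nuclei was also tested between the groups as an interaction. It gave 0% of 12830 genes (736 at an unadjusted p under 0.05, 1 by DESeq2), and the members ranged from -0.44 for Ccne1 to 0.26 for Rbl1, with adjusted p of 0.874 to 1. Every list of pathway genes likewise gave 0 calls between the groups in tumor-like nuclei. The smallest unadjusted p in each list belonged to Gdf15 (-1.73) and Btg2 (-0.93) among targets, Atr (0.42) and Atm (0.32) among regulators, Cdkn1c (-1.88) and Cdkn2b (-0.74) among kinases, cyclins and inhibitors, and E2f3 (0.36) and Lin37 (-0.69) among E2F and DREAM genes, all at an adjusted p of 0.573.

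**Figure D5:**
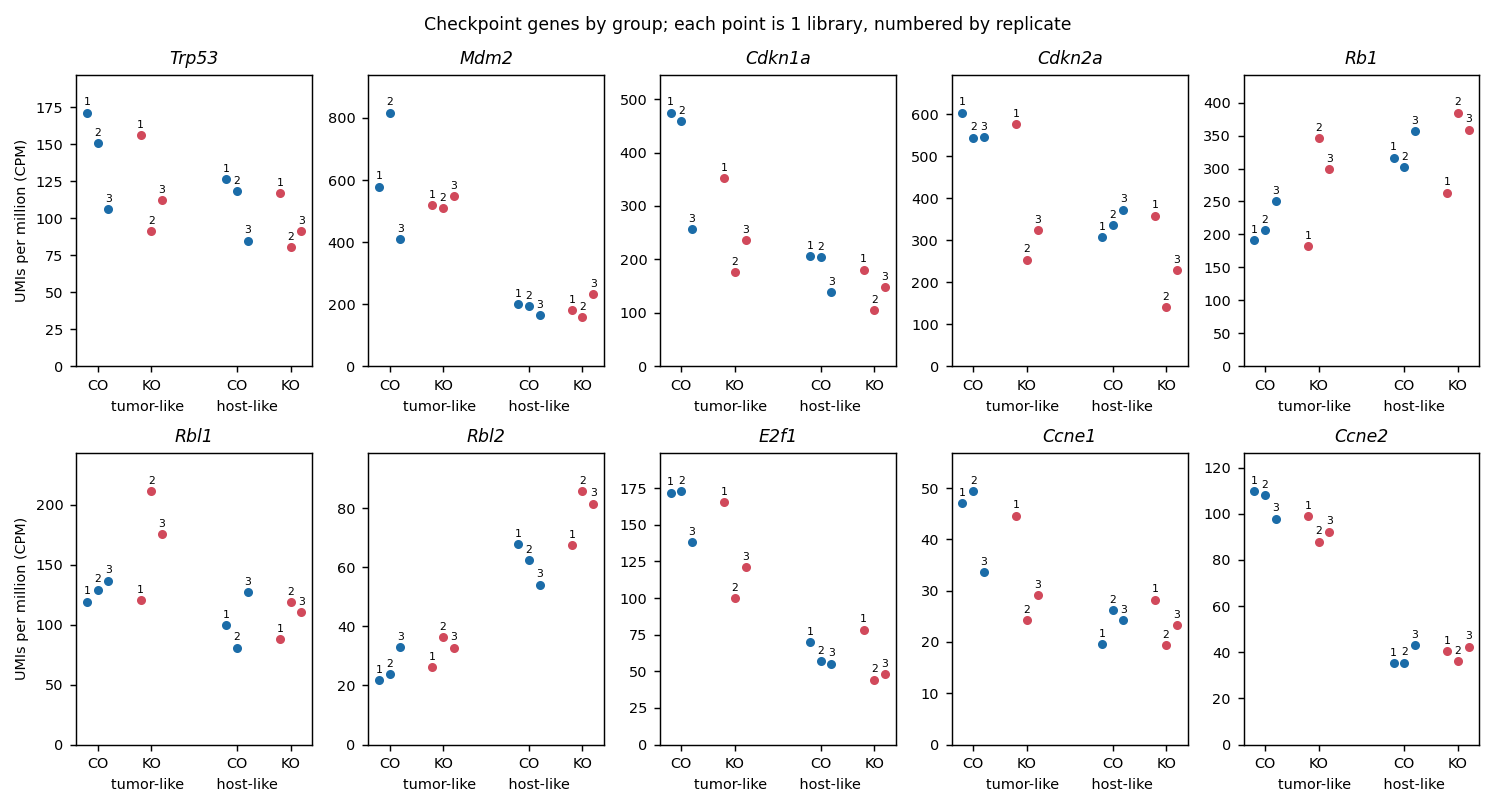
CPM (vertical axis of each panel) of the 10 members in the CO libraries and the libraries labelled KO, in tumor-like and host-like nuclei, with points numbered by replicate. Tumor-like Cdkn1a lies at 256 to 475 CPM in CO and 176 to 352 CPM in KO, and none of the 10 passed the test in either class.

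The genes whose levels ran most like those of each member were taken over 18 profiles, the tumor-like, macrophage-like and lymphocyte-like nuclei of each library, among 8235 genes. These profiles share libraries and depth, so the Pearson correlations of log2(CPM + 10) are a description. Rbl2 ran with the G1 kinase gene Cdk6 (0.97), Nsmaf (0.97) and Nup210 (0.96), and Rb1 with Tnrc18 (0.97), Nedd4l (0.94) and Epb41l2 (0.94). Mdm2 ran with Osmr, Rsbn1 and Cd80 (0.93 to 0.94), Cdkn1a with Phlda1, Ttc19 and the lamin gene Lmna (0.93 to 0.94) and Cdkn2a with Emp2, Pold2 and Gnas (0.91 to 0.94). Ccne1 ran with Kctd18 and the mitotic genes Aurka and Cenpw (0.94 each), Ccne2 with Hoxb9 (0.95), Cchcr1 and D10Wsu102e (both 0.94), and E2f1 with Gsdme (0.92), Utp4 (0.91) and Fermt2 (0.90). Trp53 ran with Ptrh2, Slc35a2 (both 0.93) and Noc3l (0.90). The closest for Rbl1 was Ints6, at 0.89, followed by Stag1 and Fam120c at 0.87.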

How the data were processed

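The labels place the 6 samples in CO and KO by title. Per the submitters' processing notes, reads were counted with Cell Ranger 3.0.2 (3.1.0 per the file headers) against GRCm38 and analyzed with Seurat 5.2.1. The matrices deposited by the authors hold raw counts of UMIs for each gene in each barcode, and every barcode had at least 500 UMIs. They are whole numbers, so the correction for free RNA in the methods of the study is not visible in them. Nuclei with 100 to 7500 genes and under 20% mitochondrial counts were kept, 18014 of 18865 barcodes. Scrublet in scanpy 1.11.5 marked 11 doublets by its own threshold, so the 500 highest scores were removed (0.8% per 1000 barcodes). In all, 61 barcodes occur in more than 1 library.

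UMIs were summed per library and class and tested with edgeR 4.0.16 (R 4.3.3) by quasi-likelihood with TMM scaling and the default filter. SE is the log2 difference over the square root of F. CPM values carry no TMM factor. The absolute log2 difference limit was 0.58 and the adjusted p limit 0.05. DESeq2 1.42.0 was an alternative. Simulated data with known changes were tested first: tumor-like against host-like, 83% of genes changed by 1 and 100% of those changed by 3 on the log2 scale were called. Members, marker lists, pathway lists and tests were chosen with earlier results of these data known. The 10 members are always named. Each pathway list names up to 4 called genes with the largest differences, or the 2 with the smallest p where none was called, and for each member the 3 most like genes are named.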

Additional observations from a re-analysis of the deposited data

How the results depend on the processing

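Over the alternatives, 1155 of 1239 member results kept their direction and side of the threshold, with 156 of 160 against host-like and 146 of 150 against macrophage-like nuclei, 162 of 180 between cycling ranges and 156 of 159 in the S-leaning split. Between the groups the counts were 146 of 150 in tumor-like, 137 of 150 in host-like and 123 of 150 in macrophage-like nuclei and 129 of 140 in the interaction. Of 56 reversed signs, 13 were in host-like nuclei, 26 in macrophage-like nuclei and 11 in the interaction, where only 1 member result was called under any alternative. Members called numbered 7 to 8 in both comparisons.

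Between cycling-high and cycling-low nuclei, 1 member was called. There were 2 in nuclei with at least 500 genes and under 5% mitochondrial counts, 3 with a stricter class limit, 2 with 4 shared genes taken out of the host lists (chosen after seeing the data), 3 when thinned to 1500 UMIs, 5 with limits of 0.5% and 0.2%, 5 with limits of 1.5% and 0.8% (chosen after seeing the data), 0 without the library block and 1 to 3 when 1 library was left out. Over all genes, the 975 calls (630 higher, 345 lower) became 423 (383 and 40) without the block and 601 (532 and 69) with limits of 0.5% and 0.2%. In the S-leaning split, 544 calls became 309 in the stricter nuclei, 196 without the block and 330 when thinned, where Rbl2 fell under the filter and was not tested. The same 3 members were called throughout.

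Between the groups, DESeq2 called 23 genes in tumor-like, 8 in host-like and 8 in macrophage-like nuclei and 1 in the interaction. With no filter, 1 was called in host-like and 24 in macrophage-like nuclei and 5 in the interaction. Leaving out 1 library gave 0 to 2778, 0 to 593, 0 to 1343 and 0 to 30 calls in these 4, and 0 to 3 members in tumor-like and 0 to 1 in macrophage-like nuclei. The highest counts for the first 3 came without KO replicate 1, when tumor-like nuclei gave 2778. Same-numbered libraries did not pair (correlations 0.55, -0.24 and 0.42 in tumor-like nuclei). With the replicate number as a block there were 0 calls, with 1943 genes at an unadjusted p under 0.05.

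The other signs that turned, with no call before or after, were those of Rbl2 between cycling ranges in the stricter nuclei (0.12), of Cdkn1a in the S-leaning split with the stricter class limit (-0.0392) and the changed host lists (-0.000416), where leaving out 1 library gave -0.0374 to 0.0448, and of Mdm2 between groups in tumor-like nuclei, where leaving out 1 library gave -0.36 to 0.15. E2f1 between cycling ranges turned to 3.21 with limits of 0.5% and 0.2%. The causes were not tested. Depth limits the lymphocyte-like values and those of Ccne1 and Rbl2, which rest on few UMIs.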
